A study of Mus musculus with 4 samples.

Results

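Granule protease genes and genes of the IgE receptor were followed: Cpa3, Mcpt8, Gzma, Gzmb, Fcer1a, Ms4a2 and Prss34, 7 of 26687 gene symbols in the tables. They were selected on their UMI counts by genotype and by Tcf7 in these same libraries, so those levels are given as a description. The cells were long-term hematopoietic stem cells sorted from crushed limb and sternum marrow of C57BL/6 mice aged 8 to 11 weeks. A single droplet library (10x Single Cell 3' v2) was made for each of 4 genotypes: NPMc+/FLt3-ITD, Flt3-ITD, NPMc+ and the control MxCRE. NPMc+ names the cytoplasmic mutant of nucleophosmin and Flt3-ITD an internal tandem duplication in the Flt3 receptor. MxCRE names a Cre recombinase driven by the interferon-inducible Mx promoter; whether the mutant animals carried it too, and how many animals were pooled, the labels do not say.

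Cpa3 encodes carboxypeptidase A3, a metalloprotease that mast cells store in their granules. Mcpt8 encodes a serine protease of mouse basophils, Prss34 encodes another, and Gzma and Gzmb encode the granzymes A and B, serine proteases that cytotoxic T cells and natural killer cells deliver into target cells. Fcer1a and Ms4a2 encode the alpha and beta chains of the high-affinity receptor for IgE, the alpha chain binding the antibody and the beta chain amplifying the signal; Fcer1g encodes the shared gamma chain. Tcf7, which encodes the T-lineage transcription factor TCF-1, was used to divide the cells, since many NPMc+/FLt3-ITD cells carried it.

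After filtering, 3321 NPMc+/FLt3-ITD, 2393 Flt3-ITD, 2375 NPMc+ and 2519 MxCRE cells were kept, with median depths of 7323, 8661, 9466 and 8094 UMIs (unique molecular identifiers, the count of distinct transcripts). With 1 library per genotype nothing measured the spread between animals: no p-value was computed, and the exact 95% intervals cover counting error only. In summed counts, more positive cells and more RNA per cell cannot be told apart, so the share of cells is given beside each level. Libraries with unequal mixes of sexes were compared: 2425 male and 179 female cells were recognised in NPMc+/FLt3-ITD, 987 and 773 in Flt3-ITD, 1155 and 495 in NPMc+, and 1218 and 583 in MxCRE. Barcode sequences kept in more than 1 library numbered 52. Of the 7 genes, 6 were listed in all 4 tables; Prss34 was listed in those of Flt3-ITD and MxCRE and was read as 0 in the others.

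Cpa3, Mcpt8, Gzma and Gzmb reached 20 CPM (UMIs of the gene scaled to the library's total) in NPMc+/FLt3-ITD or MxCRE, and all 4 were at least 2-fold higher in NPMc+/FLt3-ITD. Over all 6938 genes at that floor, the share called higher by 2-fold or more was 5.42%, and the share called lower was 5.74%. The other 3 members stayed below the floor, so these 4 entered through the library in which they were high and the count supports nothing by itself. Cpa3 alone reached the floor in Flt3-ITD or MxCRE and was higher, beside 2.38% of all genes tested there. It was likewise the one gene at the floor between NPMc+ and MxCRE and was higher, beside 1.78% of all genes. The same 4 genes were higher in NPMc+/FLt3-ITD than in Flt3-ITD, where 4.28% of all genes were, and than in NPMc+, where 5.51% were. These comparisons share libraries, so they are not independent of each other. Mcpt8, Gzma and Gzmb were under the floor in Flt3-ITD and in NPMc+, and Cpa3 was under it in MxCRE at 16.1 CPM. They entered through the library in which they were high, so these counts support nothing by themselves either.

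The mast cell carboxypeptidase gene Cpa3 (chromosome 3, 20215620 to 20242181, minus strand, mm10) counted 14823 UMIs in NPMc+/FLt3-ITD, 929 in Flt3-ITD, 1987 in NPMc+ and 337 in MxCRE. That made 549.7 CPM (540.9 to 558.6) in NPMc+/FLt3-ITD, 42.3 (39.6 to 45.1) in Flt3-ITD, 79.3 (75.8 to 82.8) in NPMc+ and 16.1 (14.4 to 17.9) in MxCRE. All 3 mutant libraries stood above MxCRE and no 2 intervals overlapped. In female cells alone, Cpa3 was at 12.0 CPM (9.57 to 14.9) in Flt3-ITD and 11.6 (8.89 to 14.99) in MxCRE, where the difference was not seen (0.04 log2 units); in male cells it was at 55.3 and 19.3. Over all cells the ratio to MxCRE was 34.2 (30.7 to 38.2) for NPMc+/FLt3-ITD, 2.63 (2.32 to 2.98) for Flt3-ITD and 4.93 (4.39 to 5.54) for NPMc+. A Cpa3 UMI was found in 61.7% of NPMc+/FLt3-ITD cells, 19.3% of Flt3-ITD cells, 32.1% of NPMc+ cells and 8.10% of MxCRE cells. With every cell thinned to 3000 UMIs the shares were 43.2%, 9.47%, 16.3% and 2.86% in the same order of genotypes. Transcripts were present in MxCRE cells too: 204 of them had a Cpa3 UMI, 145 with a single one.

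Mcpt8 (chromosome 14, 56082166 to 56085273, minus strand), the basophil protease gene, counted 676 UMIs in NPMc+/FLt3-ITD, 88 in Flt3-ITD, 77 in NPMc+ and 0 in MxCRE. Its level was 25.1 CPM (23.2 to 27.0) in NPMc+/FLt3-ITD, 4.00 (3.21 to 4.93) in Flt3-ITD and 3.07 (2.42 to 3.84) in NPMc+. Against a floor of 3 counts in MxCRE this was at least 175-fold higher in NPMc+/FLt3-ITD, at least 27.9-fold in Flt3-ITD and at least 21.4-fold in NPMc+. It was found in 354 NPMc+/FLt3-ITD cells (10.7%), 56 Flt3-ITD cells (2.34%) and 40 NPMc+ cells (1.68%). No MxCRE cell of 2519 had it, for which the exact interval allows a share of up to 0.146%. A few cells held much of it: the top 1% of NPMc+/FLt3-ITD cells had 37.3% of its UMIs.

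Gzmb (chromosome 14, 56258838 to 56262260, minus strand), the granzyme B gene, lies 173.6 kb from Mcpt8 in the same protease cluster. It counted 2173 UMIs in NPMc+/FLt3-ITD, 90 in Flt3-ITD, 230 in NPMc+ and 10 in MxCRE, and was 80.6 CPM (77.2 to 84.0), 4.09 (3.29 to 5.03), 9.17 (8.03 to 10.4) and 0.477 (0.229 to 0.878) in those libraries. All 3 mutant libraries again stood above MxCRE, at 169-fold (91.6 to 352), 8.57-fold (4.45 to 18.5) and 19.2-fold (10.3 to 40.6). In female cells the Flt3-ITD direction turned, with 0.9999 CPM in Flt3-ITD and 1.36 in MxCRE, 7 UMIs each; male cells had 5.93 CPM in Flt3-ITD and 0 in MxCRE. Positive cells made up 18.3% of NPMc+/FLt3-ITD, 2.13% of Flt3-ITD, 4.93% of NPMc+ and 0.159% of MxCRE cells. Of the 31-base words of its transcripts, 19 of 1406 also occur in the related granzyme gene Gzmc, so a small part of its reads could be shared.

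Gzma (chromosome 13, 113093825 to 113100981, minus strand), the granzyme A gene, was a gene of the NPMc+/FLt3-ITD library. It counted 1194 UMIs there, 7 in Flt3-ITD, 52 in NPMc+ and 1 in MxCRE, or 44.3 CPM (41.8 to 46.9), 0.318 (0.128 to 0.656), 2.07 (1.55 to 2.72) and 0.0477 (0.00121 to 0.266). In NPMc+/FLt3-ITD they were spread over 341 cells (10.3%), the highest of which had 22 UMIs. In NPMc+, 47 of the 52 UMIs lay in 1 cell, and in Flt3-ITD all 7 did, so those levels describe single cells. The NPMc+/FLt3-ITD level was 139-fold (67.3 to 347) that of Flt3-ITD and 21.3-fold (16.2 to 28.8) that of NPMc+, and its ratio to MxCRE of 927 (166 to 36659.7) rests on a single MxCRE UMI.

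Fcer1a (chromosome 1, 173221284 to 173227214, minus strand), the IgE-binding chain, did not follow the proteases. It counted 17 UMIs in NPMc+/FLt3-ITD, 9 in Flt3-ITD, 455 in NPMc+ and 45 in MxCRE, or 0.630 CPM (0.367 to 1.01), 0.409 (0.187 to 0.777), 18.1 (16.5 to 19.9) and 2.15 (1.57 to 2.87). NPMc+ was the high library, 8.45-fold (6.21 to 11.7) above MxCRE, with a UMI in 181 cells (7.62%). NPMc+/FLt3-ITD was 28.8-fold lower than NPMc+ (17.8 to 49.9) and 3.41-fold lower than MxCRE (1.91 to 6.35); Flt3-ITD was 5.25-fold lower than MxCRE (2.53 to 12.2). Ms4a2 (chromosome 19, 11615523 to 11623719, minus strand), the beta chain, was scarce everywhere with 13, 5, 43 and 4 UMIs in NPMc+/FLt3-ITD, Flt3-ITD, NPMc+ and MxCRE. It too was highest in NPMc+, at 1.72 CPM (1.24 to 2.31), against 0.482 (0.257 to 0.824) in NPMc+/FLt3-ITD and 0.191 (0.0520 to 0.489) in MxCRE. Of the 13 NPMc+/FLt3-ITD UMIs, 6 came from 1 cell. Of the 31-base words of Ms4a2 transcripts, 116 of 2927 also occur in other genes, Ms4a4b and Tph1 among them, so some of its few reads could be shared. Prss34 (chromosome 17, 25298394 to 25300165, plus strand) had 0 UMIs in NPMc+/FLt3-ITD, 1 in Flt3-ITD, 0 in NPMc+ and 2 in MxCRE, at or under the floor of 3 counts in every library. Fcer1g, the gamma chain gene used by several receptors, stood at 240.4 CPM in NPMc+/FLt3-ITD and 61.9 in MxCRE, 3.88-fold higher (3.66 to 4.12).

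**Figure D1:**
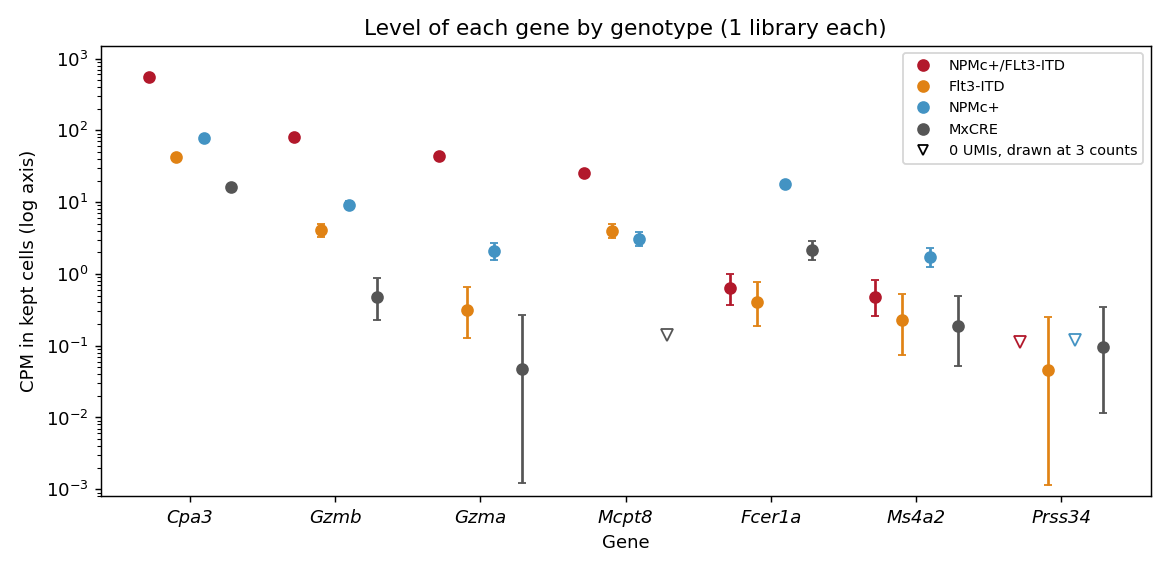
CPM of the 7 genes (log axis) in each library, with exact Poisson 95% intervals for counting error; open triangles mark 0 UMIs, drawn at 3 counts. Cpa3, Gzmb, Gzma and Mcpt8 are highest in NPMc+/FLt3-ITD, while Fcer1a and Ms4a2 are highest in NPMc+.

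The promoters of the 4 genes that were high in NPMc+/FLt3-ITD were read from RefSeq (GRCm38.p6, the mm10 assembly), 250 bases upstream of each RefSeq start, because these genes were high in the same library, some in the same cells of it and some in different ones. The gene positions given above are GENCODE's, whose starts of Mcpt8 and Gzmb differ from RefSeq's. Each window is given 5' to 3' on the gene's strand, here the minus strand, with every searched motif in capitals.
Cpa3, chr3:20242182-20242431: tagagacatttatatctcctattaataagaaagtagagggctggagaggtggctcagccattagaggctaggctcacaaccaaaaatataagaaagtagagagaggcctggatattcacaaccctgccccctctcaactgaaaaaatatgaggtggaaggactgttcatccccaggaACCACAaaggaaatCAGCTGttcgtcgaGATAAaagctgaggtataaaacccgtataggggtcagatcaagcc
Gzma, chr13:113100982-113101231: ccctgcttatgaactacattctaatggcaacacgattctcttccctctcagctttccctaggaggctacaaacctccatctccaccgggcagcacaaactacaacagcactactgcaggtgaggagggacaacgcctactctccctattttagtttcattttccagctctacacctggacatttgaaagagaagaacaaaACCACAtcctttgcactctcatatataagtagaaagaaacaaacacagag
Gzmb, chr14:56262335-56262584: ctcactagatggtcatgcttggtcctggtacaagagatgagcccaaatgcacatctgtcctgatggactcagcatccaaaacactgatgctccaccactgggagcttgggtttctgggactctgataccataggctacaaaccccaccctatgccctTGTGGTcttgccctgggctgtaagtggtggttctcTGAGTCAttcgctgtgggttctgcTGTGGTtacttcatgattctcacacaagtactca
Mcpt8, chr14:56085198-56085447: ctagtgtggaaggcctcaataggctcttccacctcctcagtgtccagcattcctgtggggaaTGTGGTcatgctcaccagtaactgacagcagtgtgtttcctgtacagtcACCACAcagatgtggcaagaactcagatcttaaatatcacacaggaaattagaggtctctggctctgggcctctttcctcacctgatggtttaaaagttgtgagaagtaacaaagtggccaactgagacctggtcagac
The motifs searched, on both strands, were GATAA (GATA factor core), TGTGGT (RUNX core), CAGCTG (an E-box), CTTTGA (TCF/LEF core) and TGAGTCA (AP-1). TGTGGT, or its reverse complement ACCACA, was present in all 4 windows, in Gzmb and Mcpt8 in 2 copies. It is held by 14.0% of 32851 RefSeq promoters of that length. Fcer1a, which was lower in NPMc+/FLt3-ITD than in MxCRE, held it too, so it is not particular to the high genes. Ms4a2 and Prss34 did not hold it. The Cpa3 window also had GATAA and CAGCTG, held by 22.6% and 13.0% of promoters. TGAGTCA was found in Gzmb, against 4.46% of promoters. CTTTGA was in none of the 4 windows, against 13.8% of promoters. No listed motif overlapped another, and a match of letters does not show a bound site.

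Where the transcripts sat was read by dividing the NPMc+/FLt3-ITD cells into 1074 Tcf7-positive cells (at least 1 Tcf7 UMI, median depth 6010.5 UMIs) and 2247 Tcf7-negative cells (7881 UMIs). Tcf7 itself was at 192 CPM in NPMc+/FLt3-ITD, 0.819 in Flt3-ITD, 2.55 in NPMc+ and 2.24 in MxCRE, with only 10, 15 and 12 Tcf7-positive cells in the last 3. Of the 4 members at the floor, Cpa3, Gzma and Mcpt8 were at least 2-fold higher in Tcf7-positive cells, beside 2.96% of 6819 genes. Gzmb was at least 2-fold lower, beside 1.04%. Gzma and Mcpt8 reached the floor only in Tcf7-positive cells, and the members were selected on Tcf7 too, so this count supports nothing by itself. By UMIs, the 4 protease genes divided: Gzma lay almost wholly in Tcf7-positive cells, and Cpa3 mostly there but in both sets. Mcpt8 lay in both sets, and Gzmb mostly in Tcf7-negative cells.

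Cpa3 stood at 1510.4 CPM in Tcf7-positive and 163.5 CPM in Tcf7-negative cells, a 9.24-fold difference (8.88 to 9.61). Of its UMIs, 78.8% lay in Tcf7-positive cells. A Cpa3 UMI was found in 84.0% of Tcf7-positive and 51.0% of Tcf7-negative cells, or 73.0% and 29.4% at 3000 UMIs per cell. Erythroid-marked cells (at least 2 Klf1 and 2 Car1 UMIs) had Cpa3 at 24.6 CPM in NPMc+/FLt3-ITD (5 of 9 cells positive), 13.6 in Flt3-ITD (3 of 11), 37.9 in NPMc+ (14 of 33) and 32.7 in MxCRE (5 of 12). The MxCRE value is above that library's own 16.1 CPM, so these cells are not used as a gauge of free RNA for Cpa3, and the part of free RNA in its Tcf7-negative level was not tested. Without Tcf7-positive cells in any library, Cpa3 was still 3.54 log2 units higher in NPMc+/FLt3-ITD than in MxCRE, compared with 5.09 over all cells. The 335 Tcf7-negative cells that also lacked a UMI of 14 other T-lineage genes had Cpa3 at 274 CPM (250 to 299). In the other libraries the few Tcf7-positive cells also had the higher level. In Flt3-ITD, Cpa3 was at 441 CPM in Tcf7-positive and 40.4 in Tcf7-negative cells. It was at 447 and 76.7 CPM in NPMc+, and at 271 and 14.1 in MxCRE. The Tcf7-positive levels came from 45, 76 and 44 UMIs in 7, 5 and 5 cells. Shares of Cpa3-positive cells were 70.0% and 19.1% in Flt3-ITD and 41.7% and 7.94% in MxCRE. In NPMc+ they were close, at 33.3% and 32.1%.

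Gzma was at 143 CPM in Tcf7-positive and 4.52 CPM in Tcf7-negative cells, 31.7-fold higher (25.4 to 39.8), with 92.7% of its UMIs in Tcf7-positive cells. It was found in 25.7% of Tcf7-positive and 2.89% of Tcf7-negative cells, or 19.2% and 0.929% at 3000 UMIs per cell. Of its 341 positive cells, 65 were Tcf7-negative. Tcf7-negative cells with another T-lineage UMI had Gzma at 4.83 CPM (3.85 to 5.98). The 335 with none had it at 1.62 (0.335 to 4.74), from 3 UMIs. The 9 erythroid-marked cells of the library, of median depth 22169 UMIs, had Gzma at 14.8 CPM from 3 UMIs in 2 cells. Those are too few to gauge free RNA, and the part of free RNA in the Tcf7-negative level of Gzma was not tested. In NPMc+, 48 of the 52 Gzma UMIs were in Tcf7-positive cells, but 47 of them lay in 1 cell. Of the 6 Gzma-positive cells of NPMc+, 4 were Tcf7-negative.

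Gzmb was lower in Tcf7-positive than in Tcf7-negative cells, at 36.9 and 98.2 CPM, a 2.66-fold difference (2.35 to 3.03). Female cells ran the other way, at 43.7 CPM (9 UMIs) in Tcf7-positive and 34.0 in Tcf7-negative cells, with overlapping intervals; male cells had 32.4 and 103. Only 13.1% of its UMIs were in Tcf7-positive cells. A UMI was found in 8.94% of Tcf7-positive and 22.8% of Tcf7-negative cells, or 4.86% and 14.9% at 3000 UMIs per cell. The level was 233 CPM (212 to 256) in the 335 cells with neither Tcf7 nor another T-lineage UMI. Erythroid-marked cells had 14.8 CPM, from 3 UMIs in 2 of 9 cells, too few to gauge free RNA. In Flt3-ITD, NPMc+ and MxCRE, 0, 2 and 0 Gzmb UMIs lay in the 10, 15 and 12 Tcf7-positive cells, too few to read a direction. In NPMc+ the level was 11.8 CPM (1.42 to 42.5) in Tcf7-positive and 9.16 (8.01 to 10.4) in Tcf7-negative cells.

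Mcpt8 was 2.30-fold higher (1.97 to 2.69) in Tcf7-positive cells, at 42.0 CPM against 18.2 CPM in Tcf7-negative cells. The shares of positive cells were close, 11.3% and 10.4%, and their intervals overlapped (9.44 to 13.3% and 9.14 to 11.7%). Without the top 1% of cells the difference was 0.99 log2 units, under 2-fold, and at 3000 UMIs per cell it was 0.89. None of the 9 erythroid-marked cells had an Mcpt8 UMI. Among Tcf7-negative cells, Mcpt8 was at 19.4 CPM (17.4 to 21.6) in those with another T-lineage UMI. It was at 7.58 (4.14 to 12.7) in the 335 with none. The shares of positive cells were 4.98% and 1.17% at 3000 UMIs per cell. Of the receptor genes, Fcer1a had 1 UMI in Tcf7-positive and 16 in Tcf7-negative cells, and Ms4a2 had 0 and 13.

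**Figure D2:**
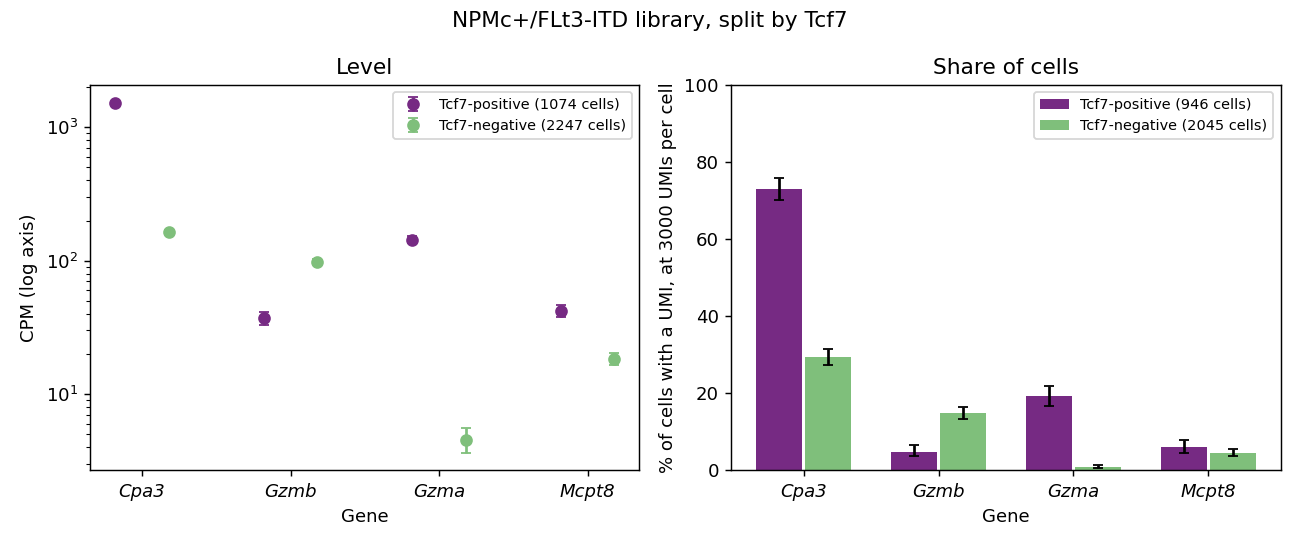
Cpa3, Gzmb, Gzma and Mcpt8 in Tcf7-positive and Tcf7-negative NPMc+/FLt3-ITD cells: level in CPM (left, log axis) and share of cells with a UMI after thinning to 3000 UMIs (right), with exact 95% intervals. Cpa3 and Gzma are higher in Tcf7-positive cells and Gzmb in Tcf7-negative cells, while the Mcpt8 shares are 6.03% and 4.50%.

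Division by the number of Tcf7 UMIs showed the step. Cpa3 was at 164 CPM in cells with no Tcf7 UMI, 267 with 1, 1656 with 2 to 3, 2752 with 4 to 7 and 2645 with 8 or more, and was found in 51.0%, 56.4%, 91.8%, 98.4% and 99.6% of those cells. Gzma was at 4.52 CPM with no Tcf7 UMI, at 67 UMIs with 1 (interval 15.5 to 25.4 CPM), and at 259, 263 and 199 CPM in the classes from 2 upward. It was found in 32.2 to 36.3% of cells from 2 Tcf7 UMIs upward. Cells with a single Tcf7 UMI were thus nearer to the Tcf7-negative cells than to the rest for both genes. Gzmb was at 98.2, 55.5, 10.0, 39.7 and 13.0 CPM, lower in all 4 classes with Tcf7 than without. Mcpt8, at 18.2, 33.4, 34.1, 68.1 and 37.7 CPM, was above the Tcf7-negative level in all 4 classes, with positive cells between 7.19% and 15.9% and no order in them. The 5 classes held 2247, 346, 183, 306 and 239 cells, with median depths of 7881, 9077, 4293, 4609.5 and 6300.0 UMIs.

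**Figure D3:**
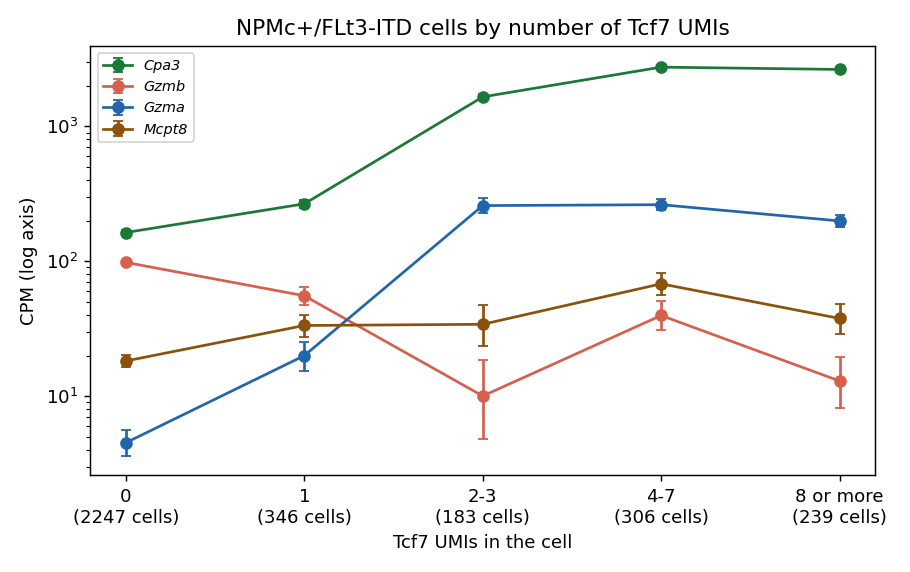
CPM (log axis) of Cpa3, Gzmb, Gzma and Mcpt8 in NPMc+/FLt3-ITD cells with 0, 1, 2 to 3, 4 to 7 and 8 or more Tcf7 UMIs, with exact Poisson 95% intervals. Cpa3 and Gzma step up between 1 and 2 to 3 Tcf7 UMIs (267 to 1656 CPM for Cpa3), and Gzmb is lower with Tcf7 than without.

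Sex was recognised from Xist and Y-linked UMIs, and it moved with these levels in NPMc+/FLt3-ITD. Male and female cells of that library had Cpa3 at 580.4 and 141 CPM, Gzma at 43.3 and 10.5, Gzmb at 81.9 and 35.3, Mcpt8 at 27.4 and 8.50, and Tcf7 at 204 and 22.2. Tcf7-positive cells made up 34.4% of the male and 11.7% of the female cells. In MxCRE the same genes were at 19.3 and 11.6 CPM (Cpa3), 0.0969 and 0 (Gzma), 0 and 1.36 (Gzmb), and 0 and 0 (Mcpt8) in male and female cells. Within Tcf7-negative cells of NPMc+/FLt3-ITD, Cpa3 was at 168 CPM in male and 102 in female cells, and Gzmb at 103 and 34.0. Among female cells alone, Cpa3 and Gzmb were at least 2-fold higher in NPMc+/FLt3-ITD than in MxCRE with 20 CPM or more, and Mcpt8 and Gzma missed that floor. Animals of each sex were not labelled apart, so sex, animal and genotype cannot be told apart here.

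Counted per cell, 71.4% of NPMc+/FLt3-ITD cells had a UMI of at least 1 of the 7 genes, against 22.2% of Flt3-ITD, 39.0% of NPMc+ and 9.13% of MxCRE cells. At least 2 of the genes were found in 27.1%, 2.09%, 8.21% and 0.318% of cells in the same libraries. In NPMc+/FLt3-ITD the pairs differed. Cpa3 and Gzma were found together in 308 cells, where the product of their shares gives 210 (1.46 times; 2.17 times at 3000 UMIs per cell), and 90.3% of Gzma-positive cells had Cpa3. Gzma and Gzmb were together in 19 cells where the product gives 62.5, and in 3 cells against 23.5 after thinning. Cpa3 and Gzmb were together in 437 cells, against a product of 376; in Tcf7-negative cells this was 362 against 262, and in Tcf7-positive cells 75 against 80.6. Cpa3 and Mcpt8 matched the product, with 216 cells against 218. Mcpt8 with Gzma fell below it, in 27 cells against 36.3, and after thinning in 4 against 10.0. Of the 9 Fcer1a-positive cells, 7 also had Gzmb and 8 had Cpa3.

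**Figure D4:**
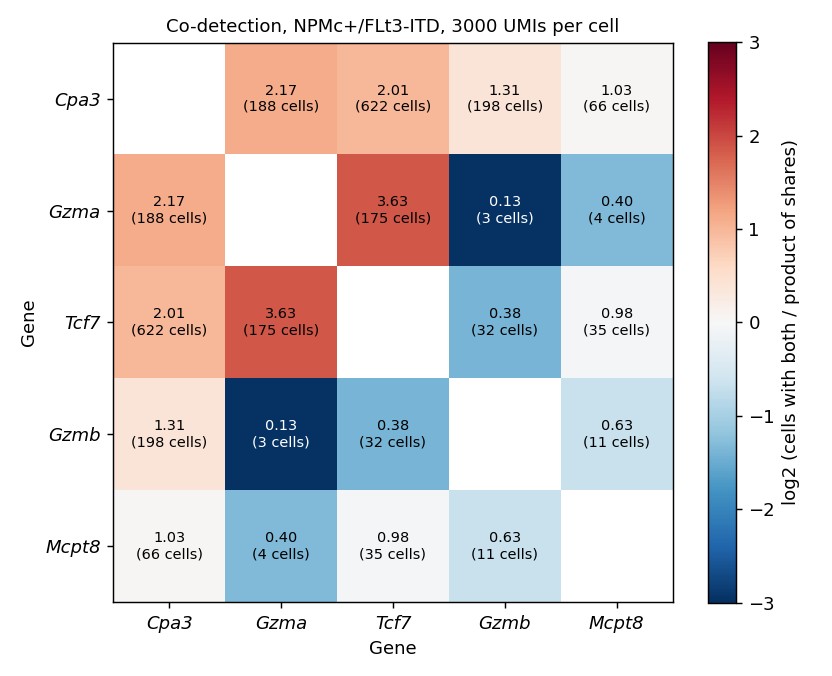
Cells with UMIs of both genes over the product of the 2 shares, for Cpa3, Gzma, Tcf7, Gzmb and Mcpt8 in 2991 NPMc+/FLt3-ITD cells thinned to 3000 UMIs; colour gives the log2 of the ratio and each box the ratio and the number of cells with both. Gzma with Tcf7 (3.63) and with Cpa3 (2.17) lies above 1 and Gzma with Gzmb (0.13) below.

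In the single mutants the same pairs were looked at with fewer cells. Cpa3 and Gzmb were together in 26 Flt3-ITD cells against a product of 9.82, and in 67 NPMc+ cells against 37.6. Cpa3 and Mcpt8 were together in 16 Flt3-ITD cells against 10.8 and in 27 NPMc+ cells against 12.9. Cpa3 and Fcer1a were together in 91 NPMc+ cells against 58.1, and Gzmb and Fcer1a in 21 against 8.92. Cpa3-positive cells were deeper than the rest in NPMc+, with medians of 10904 and 8522 UMIs in positive and negative cells. After thinning the NPMc+ ratios were 1.53 for Cpa3 and Gzmb, 1.98 for Cpa3 and Fcer1a and 2.76 for Gzmb and Fcer1a, the last from 4 cells.

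The genes whose pattern across the 3321 NPMc+/FLt3-ITD cells was most like each member were ranked by Pearson's r of log-scaled UMIs. The cells share 1 library and differ in depth, so r is a description. For Cpa3 they were Tcf7 (r = 0.75), Bcl11b (0.66), Plac8 (0.66), Gata3 (0.62) and Lck (0.62), all but Plac8 being T-lineage genes. Within the Tcf7-negative cells, r with Cpa3 was 0.17 for Bcl11b, 0.33 for Plac8, 0.12 for Gata3 and 0.09 for Lck. Within the Tcf7-positive cells it was 0.61, 0.69, 0.59 and 0.64. In the other libraries, Plac8 kept an r with Cpa3 of 0.23 in Flt3-ITD, 0.37 in NPMc+ and 0.20 in MxCRE, and Gata3 had -0.04, -0.05 and -0.03. For Gzma the first 4 were Endou (0.54), Ms4a6b (0.54), Bcl11b (0.52) and Skap1 (0.50), which encodes a T cell receptor adaptor. Within the Tcf7-negative cells these genes had r with Gzma of 0.13, 0.16, 0.30 and 0.15. For Gzmb they were Scin (0.41), which encodes an actin-severing protein, Cd63 (0.32), a granule membrane protein gene, Slc18a2 (0.31), a vesicular monoamine transporter gene of mast cells, Itga2b (0.31) and Gata2 (0.30). For Mcpt8 the first was Ctsg (0.38), the cathepsin G gene, with r = 0.39 in Flt3-ITD and 0.38 in NPMc+; the next 4, Ccl9, Mpo, Emilin2 and Perp, were at 0.15 to 0.23 and are not read further.

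**Figure D5:**
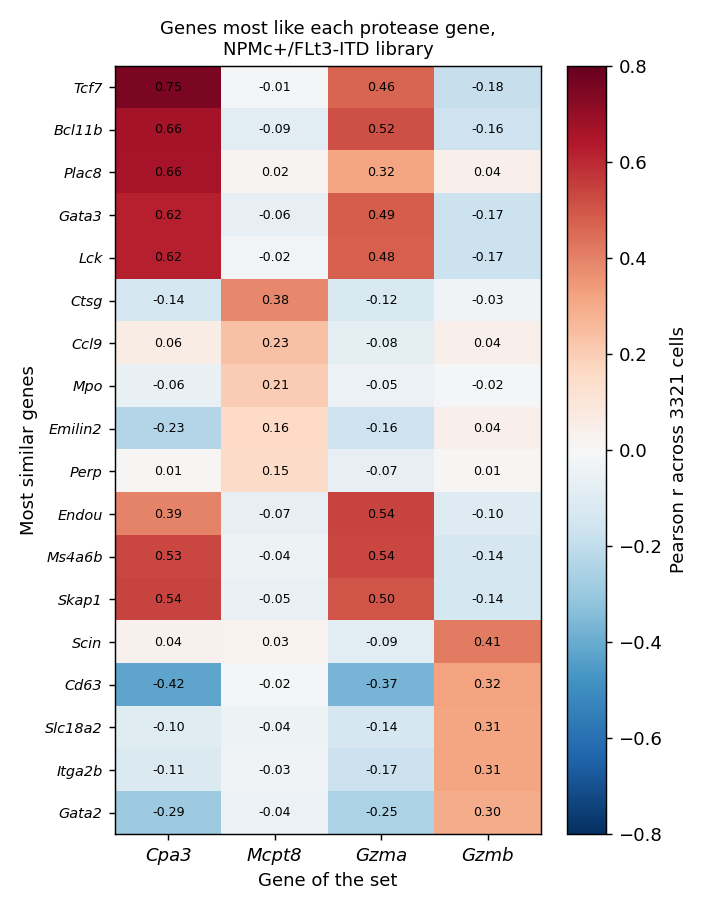
Pearson r across 3321 NPMc+/FLt3-ITD cells between Cpa3, Mcpt8, Gzma and Gzmb (columns) and the genes most like each (rows, 5 per column gene but 4 for Gzma, Bcl11b shown once). The Cpa3 genes are also positive with Gzma and mostly negative with Gzmb, whose own genes Cd63 and Gata2 are negative with Cpa3 and Gzma.

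Ctsg lies 14.6 kb from Mcpt8 on chromosome 14 and encodes a related serine protease of myeloid granules. It was at 493 CPM in Mcpt8-positive and 118 CPM in Mcpt8-negative cells of NPMc+/FLt3-ITD, at 301 and 33.0 in those of Flt3-ITD and at 772 and 15.8 in those of NPMc+. The first is a 4.16-fold difference; 7 of 6671 genes (0.105%) were at least 2-fold higher in Mcpt8-positive cells. Mpo, the myeloperoxidase gene, was at 66.8 and 28.7 CPM in Mcpt8-positive and Mcpt8-negative cells of NPMc+/FLt3-ITD, 285 and 71.4 in those of Flt3-ITD, and 739 and 10.0 in those of NPMc+. Reads of 1 cell weigh in the NPMc+ values, since 1 cell held 30.5% of all Ctsg UMIs there. Across libraries Ctsg followed Mcpt8 in order, at 174 CPM in NPMc+/FLt3-ITD, 42.4 in Flt3-ITD, 36.3 in NPMc+ and 0.668 in MxCRE.

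Gzmb-positive cells of NPMc+/FLt3-ITD had Scin at 145 CPM and Gzmb-negative cells at 39.2, Slc18a2 at 114 and 42.0, Cd63 at 1149 and 632, Gata2 at 389 and 203, Gata1 at 35.8 and 13.7, and Lat2, an adaptor of the IgE receptor pathway, at 433 and 249.99. In this comparison 0.24% of all genes were at least 2-fold higher and 0.69% lower, and Cd63, Gata2 and Lat2 did not reach 2-fold. Of 7 mast cell genes 1 was higher, Slc18a2 (median 0.49 log2 units). Of 6 megakaryocyte genes 2 were, Itga2b at 199.6 and 90.9 CPM and Pf4 at 61.0 and 28.8 (median 0.73), and the erythroid list had 1 of 5 higher and 1 lower (median 0.65). Of the T-lineage list, 6 of 9 measured genes were lower and none higher. Scin was the higher in Gzmb-positive cells of the single mutants too, at 46.6 and 9.11 CPM in positive and negative cells of Flt3-ITD and 48.2 and 8.77 in those of NPMc+. Of 9 cytotoxic lymphocyte genes none was 2-fold higher or lower in Gzmb-positive cells of NPMc+/FLt3-ITD (median 0.02 log2 units), and Nkg7, a granule membrane gene, was at 583 CPM in Gzmb-positive and 506 in Gzmb-negative cells. Prf1, the perforin gene, had 4 UMIs and Ncr1, a natural killer cell receptor gene, 0 in that whole library, so neither could mark the Gzmb-positive cells. In NPMc+ the Gzmb-positive cells did have Ncr1, at 13.6 CPM against 0.466 in Gzmb-negative cells, but 15 of the 31 Ncr1 UMIs of that library lay in 1 cell.

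Within the Tcf7-positive cells, the 276 with Gzma had Bcl11b at 608 CPM and the 798 without it at 197; Gata3 was at 636 and 213, Dntt at 1074 and 491, and Tcf7 at 1094 and 572. Cpa3 was at 2338 CPM with Gzma and 1319.9 without it. Gzma-positive cells were shallower, with a median of 4373.5 UMIs against 6891 in the Gzma-negative cells. Among Tcf7-negative cells, the 1147 with Cpa3 had Gzmb at 153 CPM and the 1100 without it at 35.1 (4.36-fold), Scin at 88.2 and 40.7, and Slc18a2 at 81.5 and 52.1, while Ctsg, at 158 and 165, differed little. Procr, a stem cell marker gene, was lower in Cpa3-positive than in Cpa3-negative cells of every library, at 24.4 and 44.1 CPM in NPMc+/FLt3-ITD, 21.3 and 57.2 in Flt3-ITD, 49.6 and 112 in NPMc+, and 53.3 and 108 in MxCRE.

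In Fcer1a-positive cells of NPMc+, 0 of 9 megakaryocyte genes (median 0.53 log2 units) and 0 of 8 cycling genes (median 0.91, summed level 675 and 372 CPM) were 2-fold higher than in Fcer1a-negative cells, beside 0.193% of all genes. Pf4, the platelet factor 4 gene, was at 888 CPM in Fcer1a-positive and 504 in Fcer1a-negative cells, and Itga2b, an integrin gene of platelets, at 397 and 242. Of 9 basophil genes 1 was at least 2-fold higher, Ms4a3 at 182 and 85.0 CPM, and 1 was lower (median 0.20 log2 units). Over all genes 0.193% were higher and 0.562% lower. Procr was at 34.4 CPM in Fcer1a-positive and 93.7 in Fcer1a-negative cells. Median depths of the positive and negative cells were 12087 and 9241.5 UMIs. Ms4a2-positive cells of NPMc+, 31 in number, had Pf4 at 1352 CPM against 527 in the rest. Fcer1a and Ms4a2 were found together in 4 NPMc+ cells, against a product of shares of 2.36, and after thinning in 0 cells against 0.302.

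The defining genes of mature mast cells and basophils were read from fixed lists. Of 27 mast cell names 18 were listed; the chymase and tryptase genes Cma1, Mcpt4, Tpsb2 and Tpsab1 were among those not listed in the tables used here. Of the 27, 7 reached 20 CPM in either library, and Fcer1g alone was at least 2-fold higher in NPMc+/FLt3-ITD than in MxCRE, with none lower; the list's median was 0.02 log2 units, beside 0.21 over all genes. Hdc, which encodes the histamine-forming enzyme, was at 2.86 CPM in NPMc+/FLt3-ITD and 0.668 in MxCRE, and Mitf, a mast cell transcription factor gene, at 2.89 and 5.87. Kit, the stem cell factor receptor gene, stood at 106 and 175 CPM. No cell is called a mast cell here.

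Beside these counts, 5.42% of all genes were higher and 5.74% lower in NPMc+/FLt3-ITD than in MxCRE. Of 26 basophil names, 12 were measured and 7 were at least 2-fold higher in NPMc+/FLt3-ITD, with none lower (median 1.48 log2 units). Cyp11a1, which encodes the enzyme that starts steroid synthesis, was at 46.5 CPM in NPMc+/FLt3-ITD and 0.859 in MxCRE (54.1-fold, 34.1 to 91.5), Ccl9 at 42.4 and 11.0, Cebpa at 27.8 and 7.54, and Ccl3 at 40.3 and 11.5. Several of these are genes of myeloid progenitors as well. Those named were under 20 CPM in MxCRE and so entered the count through NPMc+/FLt3-ITD, as did Ctsg, Prss57 and Mpo below. Cd200r3, a receptor gene of mature basophils, had 3 UMIs in NPMc+/FLt3-ITD, 3 in Flt3-ITD, 29 in NPMc+ and 6 in MxCRE. Granule serine protease relatives were higher for 3 of 4 measured genes: Ctsg at 174 and 0.668 CPM (260-fold, 155 to 477), Prss57 at 113 and 10.9 and Mpo at 34.4 and 8.98, while Prtn3 was at 300.3 and 518. Of 15 genes of IgE receptor signalling, 3 were higher: Lat2 (285 and 24.5 CPM, 11.6-fold), Fcer1g and Lat (250.2 and 69.4); the list's median was 0.17. Among cytotoxic lymphocyte genes 5 of 10 were higher, with Nkg7 at 521 and 140.4 CPM and Ctsw at 53.6 and 16.1, and Prf1 had 4 UMIs in NPMc+/FLt3-ITD and 1 in MxCRE. T-lineage genes were higher for 9 of 10, their summed level being 2020.0 CPM in NPMc+/FLt3-ITD, 245 in Flt3-ITD, 204 in NPMc+ and 197 in MxCRE; Hes1, a Notch target gene, was lower. Of 16 mast and basophil transcription factor genes 3 were higher and 2 lower (median 0.19), and of 4 MS4A relatives of Ms4a2 1 was higher, Ms4a6b at 83.5 and 39.9 CPM, and 1 lower, Ms4a6c at 19.2 and 41.3. No carboxypeptidase A relative and no eosinophil gene reached 20 CPM. The single mutants shared part of this over MxCRE. In Flt3-ITD 5 of 12 basophil genes and 4 of 5 granule relatives were higher, beside 2.38% of all genes. In NPMc+ 2 of 9 and 3 of 4 were, beside 1.78%. The granule relative Elane counted as higher in both, at 32.3 CPM in Flt3-ITD and 25.5 in NPMc+, against 0.621 in MxCRE. A single cell held 61.9% of its UMIs in Flt3-ITD, and a single cell 84.5% in NPMc+. Over Flt3-ITD, NPMc+/FLt3-ITD had 1 of 13 basophil genes higher and 1 lower, and 2 of 5 granule relatives higher and 2 lower. Of all genes there, 4.28% were higher and 4.46% lower. Elane was among the lower granule relatives in that comparison, at 14.8 CPM in NPMc+/FLt3-ITD and 32.3 in Flt3-ITD, so that call too leans on single cells.

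Between Tcf7-positive and Tcf7-negative cells of NPMc+/FLt3-ITD, 2.96% of all genes were higher and 1.04% lower, and most mast and basophil genes did not reach 2-fold. None of 7 mast cell genes was at least 2-fold higher in Tcf7-positive cells and 2 were lower, Gata2 at 110.3 and 290.4 CPM and Slc18a2 at 25.9 and 67.8. Of 12 basophil genes none was higher and 2 were lower, Gata2 and Aqp9. Of 16 mast and basophil transcription factor genes 2 were higher and 4 lower, with a median of 0.01 log2 units; Notch1 was at 23.2 and 9.67 CPM, Tal1 at 16.4 and 46.1 and Gata1 at 8.67 and 21.6. The cytotoxic list had 2 of 9 higher, Ccl5 at 188 and 25.5 CPM and Rab27a, which encodes a granule transport GTPase, at 153 and 58.6. All 11 T-lineage genes measured were higher, with a median of 3.15 log2 units beside -0.02 over all genes.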

How the data were processed

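The 4 deposited tables of UMI counts, raw whole numbers per gene and cell barcode, were used; per the submitters' processing notes the authors made them with STARsolo in STAR 2.7.0c on mm10. They held 11407 barcodes and 95244127 UMIs. Cells with at least 1000 UMIs, 500 genes and at most 10% mitochondrial UMIs were kept, 10608 in all. UMIs were summed per library or cell set and scaled to CPM. Ratios carry exact Poisson-based 95% intervals and shares exact Clopper-Pearson ones. A gene was tested at 20 CPM in either group and called at 2-fold; a group with no count was set to a floor of 3 counts. Depth was equalised by thinning cells to 3000 UMIs. No doublet caller was run; leaving out the 5% of cells with most UMIs was tried instead. The 5 genes most like each member were named by Pearson's r of log(1 + UMIs per 10000); T cell receptor constant genes were left out of that ranking. The fifth gene for Gzma is not reported here. All 7 members were named, and from each list up to 4 measured genes furthest from equality; marker genes below the floor and other genes set beside member-positive and member-negative cells were chosen after their values were seen. The members, lists and rules were chosen with earlier results of these data known. Code was tested on simulated counts. Alternative scalings used edgeR 4.0.16 (TMM factors) and DESeq2 1.42.0 (size factors) in R 4.3.3; no test of either was run. Other work used Python 3.11.15, numpy 2.4.6, scipy 1.17.1, pandas 2.3.3 and matplotlib 3.10.9. Other alternatives changed the floor, the fold, the cell filter, the Tcf7 threshold and the sex analysed.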

Additional observations from a re-analysis of the deposited data

Results flagged for a closer look

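Barcodes with under 1000 UMIs, which no comparison used, held Cpa3, Gzmb, Gzma and Tcf7. In NPMc+/FLt3-ITD the 203 such barcodes had 41 Cpa3 UMIs, or 415 CPM (298 to 564). They had Gzmb at 142 CPM (77.6 to 238), Gzma at 101 (48.6 to 186) and Tcf7 at 182 (108 to 288). These came from 14, 10 and 18 UMIs. Kept cells of that library had the 3 genes at 80.6, 44.3 and 192 CPM. Mcpt8 had 1 UMI in those barcodes. In MxCRE the 206 such barcodes had 0 Cpa3 UMIs, under a floor of 64.6 CPM. The part of free RNA in the kept cells was not tested.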

How the results depend on the processing

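No paired analysis was possible because each genotype had 1 library. The main counts of genes at least 2-fold higher, followed by those at a 5 CPM floor, with no floor and at 1.5-fold, were 376, 671, 3555 and 978 for NPMc+/FLt3-ITD over MxCRE, 156, 284, 2901 and 289 for Flt3-ITD over MxCRE, 117, 224, 2764 and 288 for NPMc+ over MxCRE, 289, 603, 3470 and 925 for NPMc+/FLt3-ITD over Flt3-ITD, 373, 709, 3711 and 945 over NPMc+ (157 in female cells), and 202, 367, 4756 and 399 for Tcf7-positive over Tcf7-negative cells. The last was 396 with Tcf7 from 2 UMIs and 109 with cells called by other T-lineage genes. Members higher in NPMc+/FLt3-ITD numbered 4 over each other library; in female cells they were 2 over MxCRE, 2 over Flt3-ITD and 1 over NPMc+, and without Tcf7-positive cells 2 over each. For Flt3-ITD over MxCRE the 1 member became 4 with no floor and 0 in female cells; for NPMc+ over MxCRE it became 2 without mitochondrial and ribosomal protein genes in the total, 3 at 5 CPM, 6 with no floor and 2 in male cells. In female cells 3 log2 ratios changed sign: Gzmb in Flt3-ITD over MxCRE (-0.44), Ms4a2 in NPMc+/FLt3-ITD over NPMc+ (2.27) and Gzmb in Tcf7-positive over Tcf7-negative cells (0.36). The cause was not tested. Higher and lower genes were 341 and 655 for NPMc+/FLt3-ITD over MxCRE without those genes in the total (376 and 398 otherwise), moving the median of all genes to -0.03 instead of 0.21; with TMM they were 192 and 71 for Flt3-ITD (156 and 114 otherwise) and 161 and 98 for NPMc+ (117 and 147 otherwise).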
